A study of Gallus gallus with 6 samples.

Results

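Transcripts of 35 genes for lipopolysaccharide (LPS) co-receptors, MyD88-pathway adaptors and kinases, and subunits and inhibitors of NF-kB were followed in macrophages that had been sorted from broiler ileum. The 35 are the rows of the deposited expression table, out of 27656 genes, whose gene name is on a list of 41 names of this pathway. The names RELA, RELB, BCL3, BIRC3, PELI1 and MALT1 were not matched and are not analysed here under those names. All 35 matched genes passed the filter on low counts, which left 20745 genes for testing.

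The study set LPS+LR21 against LPS, with 3 libraries of polyadenylated RNA for each. In the LPS+LR21 group, broilers were injected with LPS, a cell-wall component of Gram-negative bacteria that provokes inflammation, and also received by gavage Lactobacillus reuteri, a gut bacterium that makes lactic acid. In the LPS group, broilers were injected with LPS alone, so both groups carry the LPS challenge and neither is an unchallenged baseline. Cells were sorted by flow cytometry with KUL01, an antibody widely used to label chicken macrophages. Age, dose and timing are not given in the sources used here, and the labels are silent on whether each library is a different bird. The p-values therefore cover the spread among these libraries alone, which may be technical. The LPS+LR21 libraries are called LR1_2, LR3 and LR4 after their columns, since these names match no single sample title. The labels do not say if LR1_2 was pooled.

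LPS is handed by CD14 to LY96 (MD-2), the partner of the toll-like receptor TLR4 on the cell surface. Toll-like receptors of this kind act through the adaptors TIRAP and MYD88, the kinase IRAK4 and the ubiquitin ligase TRAF6, which switch on the TAK1 complex and then the IkB kinases. IkB proteins hold NF-kB in the cytoplasm until these kinases mark them for destruction. Several inhibitors of the pathway, among them IkB alpha (NFKBIA) and A20 (TNFAIP3), are themselves induced by NF-kB in mammals and close a negative feedback loop. Intestinal macrophages of mammals are known for taking up bacteria while giving a muted response to LPS.

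Library depth lay between 31284679 and 45492503 counts. The macrophage markers CSF1R, MARCO, VSIG4, SPI1 and C1QA were present in every library. The 20 tested macrophage markers nonetheless all had a fitted value below 0 for LPS+LR21 over LPS (median log2 fold change -1.28), and the 25 epithelial markers all had one above 0 (median 2.26). Summed over each list, macrophage markers reached 4405 FPKM in LR1_2, 10890 FPKM in LR3 and 4520 FPKM in LR4, against 12660 to 16840 FPKM in the LPS libraries. Of these sums, CD74 alone gave 2440, 5519 and 2944 FPKM in LR1_2, LR3 and LR4, against 6203 to 8283 FPKM in the LPS libraries. Epithelial markers summed to 8500 FPKM in LR1_2, 2048 FPKM in LR3 and 4644 FPKM in LR4, against 646 to 1095 FPKM in the LPS libraries. T and NK cell markers summed to 359, 655 and 376 FPKM in LR1_2, LR3 and LR4, against 171 to 218 FPKM in the LPS libraries. LR3 thus stood apart from LR1_2 and LR4, with macrophage and epithelial sums nearer to those of LPS, and calls were made with and without it. It also had fewer genes with a count (18811, against 22493 to 24539 in the other 5 libraries), and 3483 of the tested genes were at 0 in LR3, against 292 to 1196 elsewhere. Mitochondrial genes took 17.7% of counts in LR4 and 12.1% to 13.98% in the other libraries. In such sorted samples, fewer macrophages and less RNA of these genes per macrophage cannot be told apart. FPKM here is fragments per kilobase, relative to library size, recomputed from the counts and scaled with TMM factors, so that it can be set side by side across both genes and libraries.

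None of the 35 genes passed the test between the groups over all genes (edgeR's quasi-likelihood test, Benjamini-Hochberg adjusted p under 0.05), where 1.06% of all tested genes passed. By unadjusted p under 0.05, 9 of the 35 passed (25.7%), against 12.1% of all tested genes, and the smallest adjusted p was 0.0651, for NOD1. Of the 35, 24 had a fitted log2 fold change below 0, against 56.5% of all tested genes, and the median was -0.65, against -0.14 over all tested genes. The 3 LPS+LR21 libraries lay wholly below the 3 LPS libraries for 9 genes, where 9.21% of all tested genes did so. They lay wholly above them for CHUK alone, where 9.77% of all tested genes did so. In either direction this made 10 of 35 genes (28.6%), against 19.0% of all tested genes. Both shares were higher among the 20 tested macrophage markers. Groups did not overlap for 70.0% of them (14 below, 0 above), and 13 had an unadjusted p under 0.05 by edgeR. DESeq2 called 3 of the 35 lower in LPS+LR21 (CD14, NOD1 and RIPK2), against 1.73% of all tested genes, and called none higher, against 4.83%. CD14 was also the 1 gene called lower by edgeR at a mean of at least 5 CPM (0.724% of all genes then tested) and by limma-trend on log2(FPKM + 0.1) (0.227%). With library quality weights in limma-voom, where LR3 received the lowest weight, 12 of the 35 were called lower, against 4.32% of all tested genes.

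**Figure D1:**
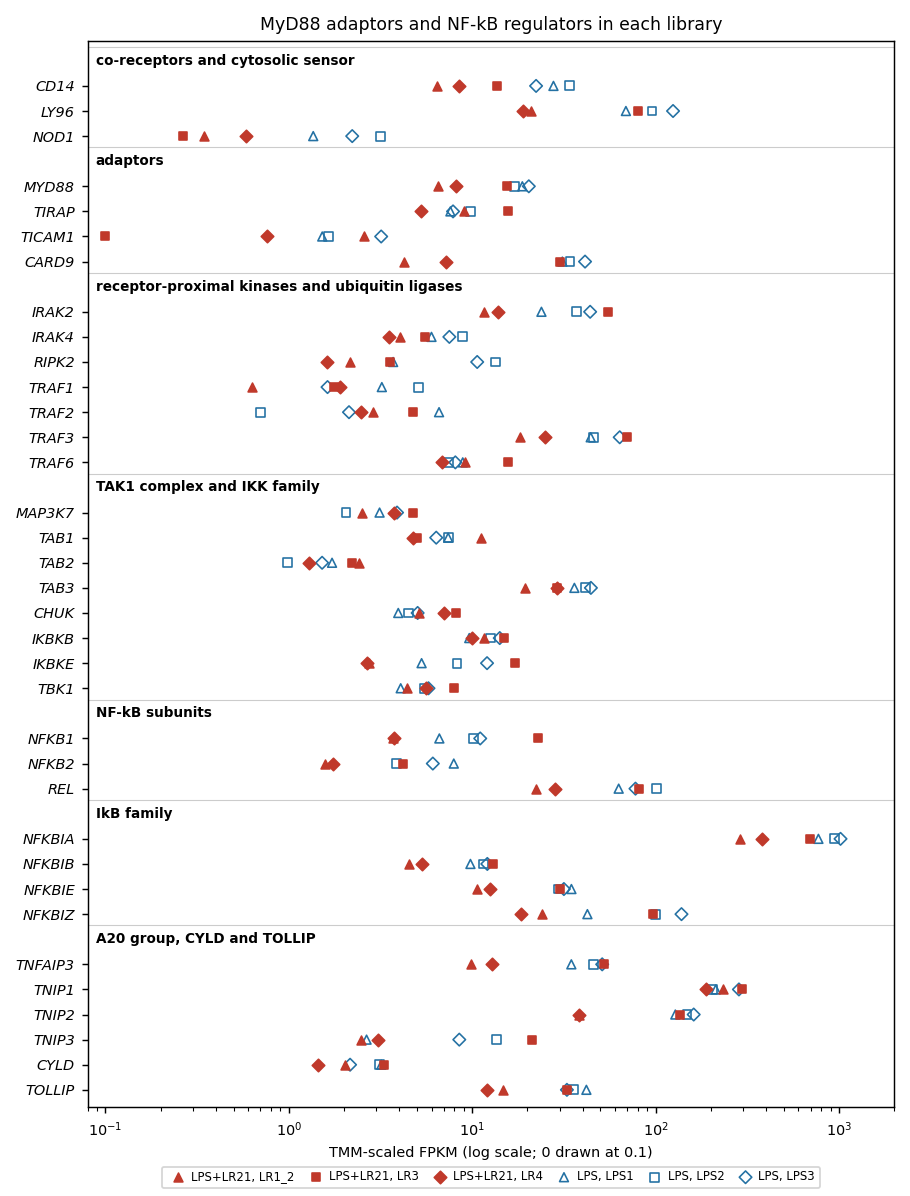
TMM-scaled FPKM (log axis) of the 35 genes in each library, grouped by role; filled red symbols are the LPS+LR21 libraries LR1_2, LR3 and LR4 and open blue symbols the LPS libraries. For CD14, NOD1, MYD88 and NFKBIA all red symbols lie left of all blue ones, while for NFKB1, IRAK2 and TRAF3 library LR3 lies right of them and LR1_2 and LR4 left; TICAM1 had no count in LR3.

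The co-receptors and the cytosolic sensor had the lowest values relative to LPS of all the roles. CD14, which passes LPS to the receptor complex (ENSGALG00010011659, chromosome 13, 841589 to 846117, minus strand; coordinates as the deposited table lists them, with the build not given), had 6.40, 13.6 and 8.47 FPKM in LR1_2, LR3 and LR4, against 27.7, 33.9 and 22.3 FPKM in the LPS libraries. Every LPS+LR21 library was below every LPS library. The log2 fold change was -1.56 ± 0.35 (SE), and it did not pass by edgeR (adjusted p = 0.0724). NOD1, a cytosolic sensor of bacterial peptidoglycan (ENSGALG00010016856, chromosome 2, 41143785 to 41169403, plus strand), had 0.345, 0.264 and 0.588 FPKM in LR1_2, LR3 and LR4, against 1.36, 3.15 and 2.22 FPKM in the LPS libraries. Its groups did not overlap either, at a log2 fold change of -2.49 ± 0.54 (SE), the most negative of the 35. LY96, the LPS-binding partner of TLR4, had 20.9, 79.9 and 18.9 FPKM in LR1_2, LR3 and LR4, against 68.8, 95.4 and 124 FPKM in the LPS libraries. Here LR3 sat inside the LPS range and the other LPS+LR21 libraries far below it (log2 fold change -1.27 ± 0.55 SE; adjusted p = 0.400 by edgeR).

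Among the adaptors, MYD88 and CARD9 had groups that did not overlap, with LPS+LR21 the lower, while those of TICAM1 and TIRAP overlapped. MYD88, the shared adaptor of most toll-like receptors and of the interleukin-1 receptor (ENSGALG00010026550, chromosome 2, 4827536 to 4840204, plus strand), had 6.53, 15.4 and 8.14 FPKM in LR1_2, LR3 and LR4, against 18.8, 17.0 and 20.3 FPKM in the LPS libraries. The LPS libraries were close together, and all LPS+LR21 libraries were below them (log2 fold change -0.90 ± 0.36 SE; adjusted p = 0.334 by edgeR). CARD9, which links C-type lectin receptors to NF-kB, had 4.23, 30.2 and 7.24 FPKM in LR1_2, LR3 and LR4, against 30.99, 34.1 and 41.2 FPKM in the LPS libraries. LR3 came within 1 FPKM of the lowest LPS library, and LR1_2 and LR4 were several times lower (log2 fold change -1.35 ± 0.63 SE). TICAM1 (TRIF), the adaptor of the interferon-inducing branch, had 1700, 0 and 405 counts in LR1_2, LR3 and LR4, against 836, 902 and 1904 counts in the LPS libraries. A count of 0 allows up to 3 counts at this depth, for counting error only, and the spread within LPS+LR21 exceeded any group difference (log2 fold change -0.94 ± 1.304 SE). TICAM1 overlaps an unnamed gene on the opposite strand with 894 to 2284 counts per library, and no source used here says how strand was handled, so its values are uncertain. TIRAP, the bridging adaptor for MYD88, had 9.99 ± 5.33 FPKM in LPS+LR21 and 8.43 ± 1.22 FPKM in LPS (SD, n = 3 each).

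Of the 7 receptor-proximal kinases and ubiquitin ligases, IRAK4 and RIPK2 had groups that did not overlap. RIPK2, the kinase that carries NOD1 signals to TAK1 (ENSGALG00010012401, chromosome 2, 123855013 to 123874063, plus strand), had 2.16, 3.56 and 1.61 FPKM in LR1_2, LR3 and LR4, against 3.70, 13.4 and 10.6 FPKM in the LPS libraries. The gap between the highest LPS+LR21 and the lowest LPS library was small, and the LPS libraries were widely spread. Its log2 fold change was -1.92 ± 0.51 (SE; adjusted p = 0.125 by edgeR). IRAK4, the kinase that MYD88 recruits, had 4.05, 5.55 and 3.53 FPKM in LR1_2, LR3 and LR4, against 5.99, 8.87 and 7.503 FPKM in the LPS libraries (log2 fold change -0.77 ± 0.33 SE). TRAF1, an adaptor induced by NF-kB in mammals, had 0.629, 1.77 and 1.91 FPKM in LR1_2, LR3 and LR4, against 3.22, 5.11 and 1.63 FPKM in the LPS libraries, and the groups overlapped through the lowest LPS value. TRAF6, the ubiquitin ligase downstream of IRAK4, and TRAF2, which serves TNF receptors, had log2 fold changes of 0.37 ± 0.35 and 0.10 ± 0.68 (SE). IRAK2 and TRAF3 were split within LPS+LR21. IRAK2, a second kinase of the MYD88 complex, had 54.8 FPKM in LR3, above the 23.8 to 43.9 FPKM of the LPS libraries, and 11.7 and 13.8 FPKM in LR1_2 and LR4, below it. TRAF3, a ubiquitin ligase of the interferon branch, had 69.8 FPKM in LR3, above the 44.2 to 63.6 FPKM of the LPS libraries, and 18.3 and 24.9 FPKM in LR1_2 and LR4.

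The TAK1 complex and the IkB kinase family had the median nearest to LPS of all roles in the fit over all libraries, a log2 fold change of 0.11 over 8 genes. In LR3 alone its median log2 difference from the LPS mean was 0.67, the highest of the roles. CHUK, the IkB kinase alpha subunit (ENSGALG00010008527, chromosome 6, 9993627 to 10029624, plus strand), had 5.11, 8.12 and 7.02 FPKM in LR1_2, LR3 and LR4, against 3.95, 4.47 and 5.04 FPKM in the LPS libraries. All LPS+LR21 libraries were above all LPS libraries, by a narrow margin for LR1_2 (log2 fold change 0.59 ± 0.30 SE; adjusted p = 0.514 by edgeR). IKBKB, the IkB kinase beta subunit, averaged 12.1 ± 2.53 FPKM in LPS+LR21 and 12.1 ± 2.27 FPKM in LPS (SD, n = 3 each). MAP3K7 (TAK1) averaged 3.66 ± 1.12 FPKM in LPS+LR21 and 3.02 ± 0.93 FPKM in LPS, and TBK1, the kinase that activates interferon regulatory factors, 5.99 ± 1.80 FPKM in LPS+LR21 and 5.12 ± 0.92 FPKM in LPS. Transcripts of the TAK1-binding proteins did not move together. TAB3 had 19.5, 28.9 and 28.9 FPKM in LR1_2, LR3 and LR4, against 36.0, 41.5 and 44.3 FPKM in the LPS libraries, without overlap (log2 fold change -0.65 ± 0.29 SE; adjusted p = 0.401 by edgeR). TAB2 had 2.41, 2.21 and 1.29 FPKM in LR1_2, LR3 and LR4, against 1.72, 0.987 and 1.52 FPKM in the LPS libraries, and TAB1 had a log2 fold change of -0.02 ± 0.40 (SE). IKBKE, an inducible relative of TBK1, had 17.1 FPKM in LR3 and 2.73 and 2.66 FPKM in LR1_2 and LR4, on either side of the 5.30 to 12.04 FPKM of the LPS libraries.

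The 3 measured NF-kB subunit genes each had lower transcript levels than LPS in LR1_2 and LR4. NFKB2, the precursor p100 of the noncanonical pathway (ENSGALG00010021000, chromosome 6, 17699955 to 17708379, plus strand), had 1.57, 4.21 and 1.73 FPKM in LR1_2, LR3 and LR4, against 7.93, 3.85 and 6.10 FPKM in the LPS libraries. Its log2 fold change was -1.25 ± 0.47 (SE; adjusted p = 0.297 by edgeR), with LR3 above the lowest LPS library. REL (c-Rel), the most abundant of the 3 per length, had 22.1, 81.3 and 28.1 FPKM in LR1_2, LR3 and LR4, against 62.8, 101 and 77.6 FPKM in the LPS libraries. NFKB1, the precursor p105 of the p50 subunit, had 3.70, 22.7 and 3.72 FPKM in LR1_2, LR3 and LR4, against 6.62, 10.1 and 11.1 FPKM in the LPS libraries. LR3 was above every LPS library and the other LPS+LR21 libraries below every LPS library, so that the fitted log2 fold change of 0.12 ± 0.66 (SE) described none of the 3.

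Transcripts of the 4 measured IkB genes all had fitted values below 0, and NFKBIA was the most abundant of the 35 genes in both groups. NFKBIA (ENSGALG00010005913, chromosome 5, 35701645 to 35705275, minus strand) had 289, 689 and 380.1 FPKM in LR1_2, LR3 and LR4, against 771, 944 and 1017 FPKM in the LPS libraries. The groups did not overlap, and LR3 was nearest to LPS (log2 fold change -1.01 ± 0.39 SE; adjusted p = 0.319 by edgeR). Its mean made up 38.1% of the summed mean FPKM of the 35 genes in LPS+LR21 and 45.4% in LPS. Per length, NFKBIA stood at 78.0, 30.3 and 102 times NFKB1 in LR1_2, LR3 and LR4, against 117, 93.3 and 92.0 times in the LPS libraries, and the ratio in LR3 was the lowest of the 6. NFKBIE (IkB epsilon) had 10.6, 30.2 and 12.5 FPKM in LR1_2, LR3 and LR4, against 34.7, 29.6 and 31.6 FPKM in the LPS libraries, LR3 falling inside the narrow LPS range. NFKBIZ, a nuclear IkB that is needed for a secondary set of NF-kB targets such as IL6 in mammals, had 24.1, 96.6 and 18.4 FPKM in LR1_2, LR3 and LR4, against 42.4, 99.7 and 138 FPKM in the LPS libraries. NFKBIB (IkB beta) had a log2 fold change of -0.55 ± 0.43 (SE).

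Among the remaining negative regulators, TOLLIP had groups that did not overlap, though by a narrow margin. TOLLIP, which restrains IRAK signalling (ENSGALG00010024700, chromosome 5, 14270569 to 14297012, plus strand), had 14.8, 32.7 and 12.1 FPKM in LR1_2, LR3 and LR4, against 41.9, 35.7 and 32.8 FPKM in the LPS libraries (log2 fold change -0.89 ± 0.40 SE; adjusted p = 0.414 by edgeR). TNFAIP3 (A20), the deubiquitinase that ends NF-kB signalling, had 9.90, 52.6 and 12.8 FPKM in LR1_2, LR3 and LR4, against 34.7, 45.7 and 51.1 FPKM in the LPS libraries. LR3 was just above the LPS range and the other LPS+LR21 libraries were well below it. TNIP2, an A20-binding protein, had 38.0, 136 and 38.1 FPKM in LR1_2, LR3 and LR4, against 128, 148 and 161 FPKM in the LPS libraries. TNIP1, another A20-binding protein and the second most abundant of the 35 genes, averaged 239 ± 53.6 FPKM in LPS+LR21 and 233 ± 44.3 FPKM in LPS (SD, n = 3 each). The fitted log2 fold change of TNIP1 was 0.03 ± 0.32 (SE). TNIP3 ran from 2.49 to 21.3 FPKM in LPS+LR21 and from 2.65 to 13.6 FPKM in LPS. CYLD, a deubiquitinase of the same pathway, had a log2 fold change of -0.33 ± 0.39 (SE).

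Across the 35 genes, spread was larger in the LPS+LR21 group than in the LPS group. The coefficient of variation was higher in LPS+LR21 for 31 of 35 genes, with a median of 51.7% in LPS+LR21 and 20.6% in LPS. The same share over all tested genes was not computed. Larger spread in LPS+LR21 also occurred outside the 35, as in CSF1R (59.6% against 7.99% in LPS) and EPCAM (51.0% against 22.7%). It did not occur in COL1A2 (13.1% against 16.8%). LR3 held the highest of the 3 LPS+LR21 values for 30 of the 35 (85.7%), against 31.5% of all tested genes. That background includes 3483 tested genes at 0 in LR3. The trait was not particular to the 35, since LR3 also held the highest LPS+LR21 value for each of the 20 tested macrophage markers. For CSF1R it had 172 FPKM, against 57.7 and 77.8 FPKM in LR1_2 and LR4. Of the 35 genes, LR3 lay above the LPS range for 16, within it for 8 and below it for 11, whereas 25 were below the LPS mean in both LR1_2 and LR4. Shares of all tested genes were not computed for these 4 counts, so they cannot be set against a background. Taken over the 35 genes, LR1_2 had a median log2 difference of -1.43 from the mean of the LPS libraries, LR3 one of 0.21 and LR4 one of -1.19. Over the 20 macrophage markers the same medians were -1.96, -0.42 and -2.36, so LR3 was nearest to LPS in both lists and the median of the 35 genes lay above that of the macrophage markers in all 3 libraries. Over the 25 epithelial markers the medians were 2.95, 1.15 and 2.35. The part of either cell content in the values of the 35 genes was not tested.

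**Figure D2:**
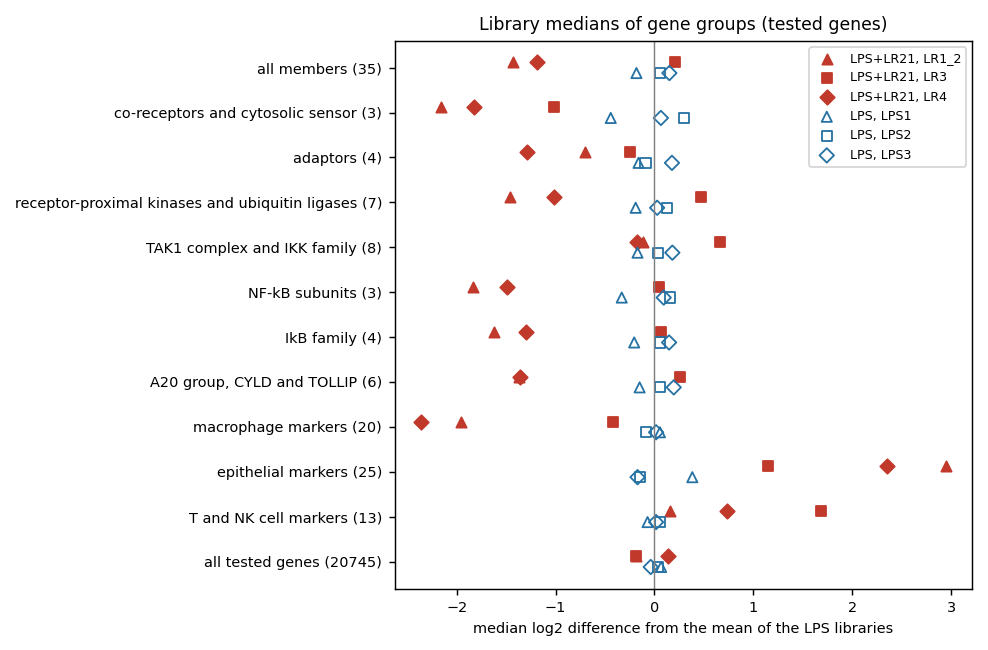
Median log2 difference from the mean of the LPS libraries (horizontal axis) for each gene group, with the number of tested genes in brackets; filled red symbols are LPS+LR21 libraries and open blue symbols LPS libraries, and over all tested genes LR1_2 lies behind LR3. LR1_2 and LR4 are at -1.43 and -1.19 over the 35 genes and near 0 for the TAK1 complex and IKK family (-0.12 and -0.18), where LR3 is at 0.67, while LR3 is below 0 for the co-receptors and the adaptors.

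Without LR3, which stood apart from the other LPS+LR21 libraries, 17 of the 35 genes were called lower in LPS+LR21 and none higher (edgeR, adjusted p under 0.05), where 3.82% of all 22486 genes then tested were called lower and 4.83% higher. This fit kept LR1_2 and LR4 alone for LPS+LR21, and LR3 was singled out by its values in these same data. LR3 held the highest LPS+LR21 value for 30 of the 35, so leaving it out lowers most fitted values. The 17 were all 3 co-receptor and sensor genes, 2 of 4 adaptors, 3 of 7 receptor-proximal kinases and ligases, 1 of 8 TAK1 and IKK genes, 2 of 3 NF-kB subunits, 3 of 4 IkB genes and 3 of 6 of the A20 group with CYLD and TOLLIP. CARD9 fell by 2.56 on the log2 scale (adjusted p = 0.00202), TNIP2 by 1.84 (0.00422), LY96 by 2.18 (0.00484), TNFAIP3 by 1.87 (0.00539) and CD14 by 1.82 (0.00585), all by edgeR without LR3. The other 12 were NOD1, RIPK2, MYD88, IRAK2, TRAF3, IKBKE, REL, NFKB2, NFKBIA, NFKBIE, NFKBIZ and TOLLIP, with adjusted p between 0.0112 and 0.0480. NFKB1 had a log2 fold change of -1.23 without LR3 (adjusted p = 0.0705, edgeR), and CHUK had 0.52. In the same fit 17 of 20 macrophage markers were lower and 22 of 25 epithelial markers higher. Leaving out any other single library, of either group, gave 0 calls among the 35 genes (3 to 6 at an unadjusted p under 0.05) and 0 calls among all genes by edgeR. The count thus changed with the libraries kept. It also changed with the method, since all libraries together gave 3 by DESeq2 and 12 by limma-voom with library quality weights.

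**Figure D3:**
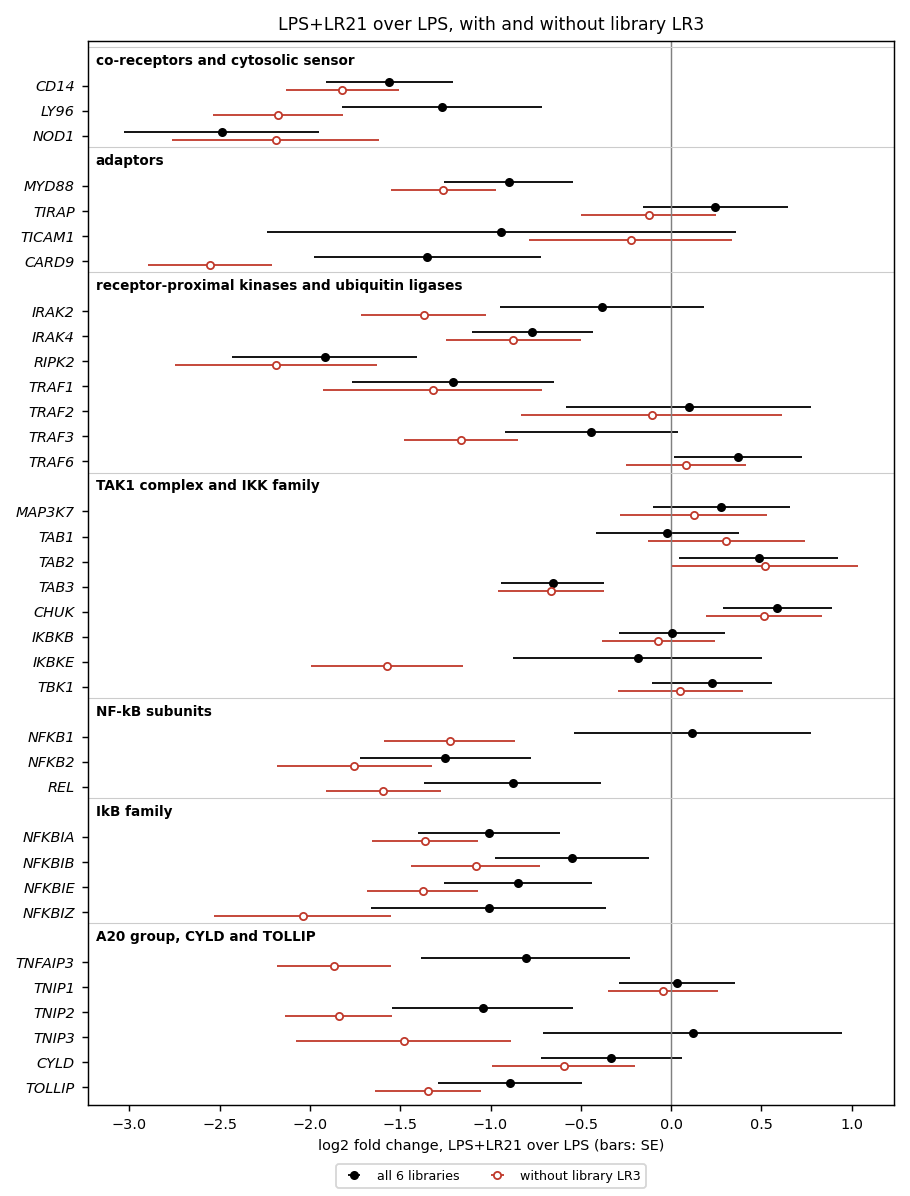
Log2 fold change of LPS+LR21 over LPS for the 35 genes (points, with bars of 1 SE), fitted with all 6 libraries (black, filled) and without LR3 (red, open). Without LR3 the values of CARD9, LY96 and TNFAIP3 lie further below 0, and that of NFKB1 turns from above 0 to below it. CHUK, MAP3K7, TBK1 and TNIP1 stay within 1 SE of their values with all libraries.

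With library factors taken from the macrophage markers, all genes shifted upward together. The median log2 fold change was then 0.82 over the 35 genes and 1.62 over all tested genes. A shift common to all genes leaves the order of these medians as it was, so that order is no result of the scaling. Of the 35 genes, 5 were fitted below 0. Under this scaling 7 genes were called higher (edgeR, adjusted p under 0.05), where 20.2% of all tested genes were called higher, so the share of the 35 was near the background. The 7 were CHUK (log2 fold change 2.24), MAP3K7 (1.904), TRAF6 (1.84), TBK1 (1.81), TIRAP (1.64), TNIP1 (1.64) and IKBKB (1.61). The genes nearest to 0 were CD14 (-0.03), LY96 (-0.08), NFKBIZ (0.12), NFKB2 (0.15), TNIP2 (0.20) and CARD9 (-0.24). RIPK2 (-0.45) and NOD1 (-0.60) were the lowest. These values are relative to the marker list alone.

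**Figure D4:**
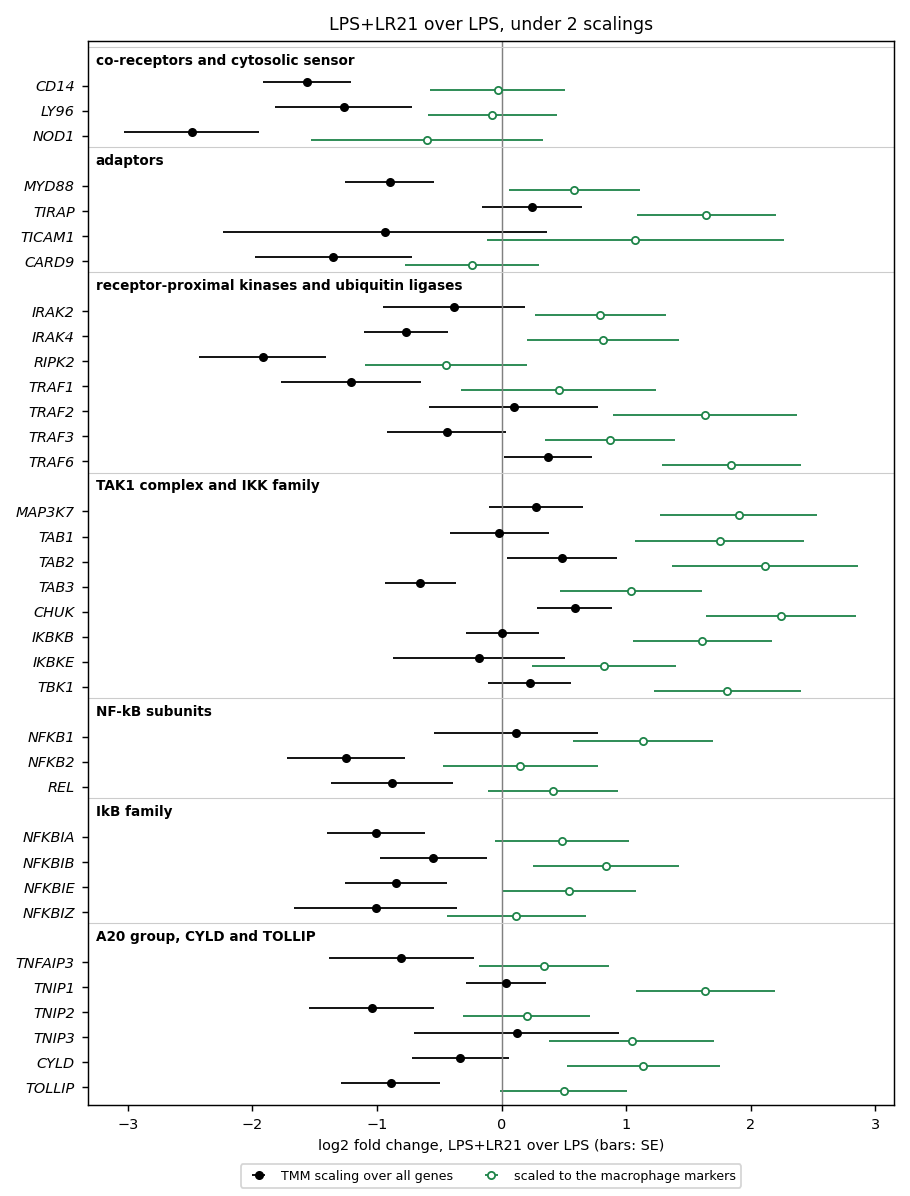
Log2 fold change of LPS+LR21 over LPS for the 35 genes (points, with bars of 1 SE) with TMM scaling over all genes (black, filled) and scaled to the macrophage markers (green, open). Every gene shifts upward under the marker scaling, and CD14, LY96, NFKBIZ and NFKB2 come to lie within 0.15 of 0.

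Of 74 named components, 59 were measured and tested. None passed by edgeR over all libraries, where 1.06% of all tested genes passed. At an unadjusted p under 0.05 there were 12 of the 59, against 12.1% of all tested genes. The median log2 fold change was -0.28, against -0.14 over all tested genes. Groups did not overlap for 30.5% of the 59, against 19.0% of all tested genes. DESeq2 called 2 of them higher and 2 lower, against 4.83% and 1.73% of all tested genes. Without LR3, 12 of the 59 were lower and 2 higher by edgeR, against 3.82% and 4.83% of all genes then tested. The 4 of smallest p were TRAF4, NKIRAS1, RIPK1 and LY86. TRAF4, a TRAF family adaptor, had 11.0, 4.36 and 7.53 FPKM in LR1_2, LR3 and LR4, against 2.33, 3.06 and 1.98 FPKM in the LPS libraries, without overlap (log2 fold change 1.64 ± 0.41 SE; adjusted p = 0.105 by edgeR). NKIRAS1, an IkB-interacting Ras-like protein, had a log2 fold change of 2.28 ± 0.66 and RIPK1, a kinase downstream of TNF receptors, of -0.997 ± 0.319 (SE). LY86 (MD-1), the partner of the toll-like receptor relative CD180, had 142, 359 and 207 FPKM in LR1_2, LR3 and LR4, against 565, 496 and 554 FPKM in the LPS libraries. LR1_2 had the highest LPS+LR21 values of TRAF4 and NKIRAS1 and the highest sum of the epithelial markers, whose part in these values was not tested. All 4 passed by edgeR without LR3, with adjusted p of 0.00900 for TRAF4, 0.00657 for NKIRAS1, 0.0236 for RIPK1 and 0.00825 for LY86.

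The 47 names of known NF-kB target genes gave 36 tested genes, with a median log2 fold change of -0.30, against -0.14 over all tested genes. More than 1 of them carried the name CCL4 (log2 fold changes 0.85 and -0.38). FAS alone passed by edgeR over all libraries, where 1.06% of all tested genes passed. At an unadjusted p under 0.05 there were 6 of the 36, against 12.1% of all tested genes. Groups did not overlap for 16.7% of the 36, against 19.0% of all tested genes. FAS, a death receptor, overlaps ACTA2 on the opposite strand. ACTA2 had 195 to 955 counts per library and FAS 1073 to 4934. Strand handling is not given, so the values of FAS are uncertain. FAS had 52.3, 38.4 and 38.8 FPKM in LR1_2, LR3 and LR4, against 14.0, 13.8 and 14.8 FPKM in the LPS libraries. It rose by 1.60 ± 0.28 on the log2 scale (SE; adjusted p = 0.0397 by edgeR), and this call was kept without LR3 (adjusted p = 0.00555) but lost without any other single library (log2 fold change 1.45 to 1.77; adjusted p between 0.144 and 0.225), in fits that called no gene of the whole table. PLAU, the urokinase gene, had 36.7, 83.0 and 67.7 FPKM in LR1_2, LR3 and LR4, against 215, 145 and 117 FPKM in the LPS libraries (log2 fold change -1.35 ± 0.39 SE; adjusted p = 0.155). The chemokine gene CCL5 had a log2 fold change of 1.09 ± 0.40 and the cytokine gene IL1B of -1.33 ± 0.51 (SE), and neither passed by edgeR over all libraries. Without LR3, IL1B fell by 2.06 on the log2 scale (adjusted p = 0.00355) and PLAU by 1.53 (adjusted p = 0.0258), while CCL5 did not pass (adjusted p = 0.188), all by edgeR. Without LR3, 13 of the 36 targets were lower and 1 higher by edgeR, against 3.82% and 4.83% of all genes then tested. The part of cell content in the values of FAS and the other targets was not tested.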

How the data were processed

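RNA-seq of 6 libraries of KUL01-sorted ileal macrophages was analysed, 3 of LPS+LR21 and 3 of LPS. The deposited table holds whole-number counts per gene, not normalized per the file headers, and FPKM values as the authors computed them. Per the submitters' processing notes, cutadapt 1.9, HISAT2 2.0.4, StringTie 1.3.4d and edgeR were used, in roles they do not state. Genome build and strand handling are not given in the sources used here, and 9 of the 35 genes overlap a gene on the opposite strand (MYD88, TIRAP, TICAM1, IRAK4, IKBKB, NFKB2, REL, NFKBIB and CYLD), so their values are uncertain, though not to the same degree. The opposite gene had 0 to 2 counts per library for MYD88 and 77 to 204 for REL. It had 1138 to 2620 for NFKBIB and 1244 to 3259 for IKBKB. TICAM1, CARD9, RIPK2, CHUK and NFKBIE overlap a gene on the same strand. The same-strand gene had 459 to 1459 counts per library for CARD9 and 354 to 1921 for NFKBIE. It had 79 to 366 for RIPK2, 0 to 44 for TICAM1 and 0 to 12 for CHUK.

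Columns of LPS carry the sample numbers and were assigned by them; those of LPS+LR21 could be assigned to the group only. The 3 deposited FPKM columns of LPS+LR21 were not used. FPKM was recomputed from counts, with each gene's length derived from the deposited LPS values of FPKM, and was then scaled with TMM factors for the text.

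The test was edgeR 4.0.16 (R 4.3.3) with filterByExpr, TMM, glmQLFit and glmQLFTest, no covariate, two-sided, Benjamini-Hochberg adjustment over 20745 genes and a threshold of 0.05. Standard errors are the absolute log2 fold change over the root of the F statistic. Differences of single libraries from the LPS mean are of log2(CPM + 0.1). Alternatives used DESeq2 1.42.0, limma 3.58.1, other scalings and filters, and libraries left out in turn. All genes on the list are accounted for by role, with values per library for the 3 of smallest unadjusted p in each role; values of other genes, such as IRAK2, TRAF3 and IKBKE, were added after they were seen. The 4 of smallest unadjusted p in each further list are named. The members and lists were chosen with earlier results of these data known.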

Additional observations from a re-analysis of the deposited data

How the results depend on the processing

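No paired analysis was possible because the LPS+LR21 columns carry no replicate number of the sample titles. The count of changed genes over the whole table was 219 (92.2% higher). It was 1361 (73.6% higher) with DESeq2, 1956 (54.2%) with library quality weights, where LR3 had the lowest weight, and 367 (80.9%) at a mean of at least 5 CPM. It was 441 and 330 with limma-trend on log2(FPKM + 0.1) and log2(FPKM + 1), and 4192 (99.95%) scaled to macrophage markers. Leaving out 1 library gave 0 to 1945, the 1945 (55.8% higher) without LR3. Of the 35 genes, 0 were called with all libraries, RLE factors, library totals, no filter or log2(FPKM + 1). The count was 1 at a mean of at least 5 CPM and with log2(FPKM + 0.1) (CD14 in both), 3 with DESeq2, 12 with quality weights, 7 scaled to macrophage markers, and 0 to 17 with 1 library left out. The number whose groups did not overlap was 10 (19.0% of all tested genes), 16 scaled to macrophage markers (34.5%) and 10 to 22 with 1 library left out, the 22 without LR3 (32.7%); it was 11 without LR4, where 34.5% of all genes did not overlap. The median log2 fold change stayed below 0, from -1.26 to -0.44, except for 0.82 with the macrophage scaling, which moved the median of all genes to 1.62. With that scaling 19 of the 24 genes fitted below 0 turned above it, among them these 13 of the 21 genes chosen by p within their role: IRAK4 (0.81), MYD88 (0.58), NFKB2 (0.15), NFKBIA (0.48), NFKBIE (0.54), NFKBIZ (0.12), REL (0.41), TAB3 (1.04), TICAM1 (1.07), TNFAIP3 (0.34), TNIP2 (0.20), TOLLIP (0.50) and TRAF1 (0.46). Of those 21, NFKB1 turned below 0 with quality weights (-0.95), log2(FPKM + 0.1) (-0.27), log2(FPKM + 1) (-0.21), without LPS replicate 1 (-0.07) and without LR3 (-1.23); with 1 library left out it ranged from -1.23 to 0.56. Over all 35 genes, 5 turned below 0 with quality weights and 6 without LR3. Scaling to genes with lower values raises all others by construction. Leaving out LR3, or giving it less weight, lowers most fitted values, since LR3 was the highest LPS+LR21 library for 30 of the 35. The cause of the other sign changes was not tested, nor was that of the differences in LR3 and in the macrophage markers.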

Other observations

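A pair of the unmatched names have a counterpart in the table under another symbol, looked up after the values had been seen. PCASP1, which the table describes as MALT1 paracaspase, the protease of the CARD9 signalling complex, had 1.12, 0.402 and 1.05 FPKM in LR1_2, LR3 and LR4, against 0.627, 1.44 and 0.785 FPKM in the LPS libraries (log2 fold change -0.15 ± 0.58 SE). LR3 was the lowest of all 6 libraries for PCASP1, whereas for CARD9 it was the highest of the LPS+LR21 libraries. PELI3, for which the RefSeq gene table lists PELI1 as a synonym, is a ubiquitin ligase of the pellino family. It had 16.4, 10.7 and 13.9 FPKM in LR1_2, LR3 and LR4, against 12.1, 11.4 and 10.01 FPKM in the LPS libraries (log2 fold change 0.29 ± 0.28 SE).

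LR3 also differed from the other LPS+LR21 libraries in T-cell transcripts. Over 13 tested T and NK cell markers its median log2 difference from the LPS mean was 1.68, against 0.16 in LR1_2 and 0.73 in LR4. None of the 13 passed between the groups over all libraries by edgeR. At an unadjusted p under 0.05 there were 5 of the 13, against 12.1% of all tested genes, and 2 of the 13 were higher by DESeq2, against 4.83%. Their part in the LR3 values of NFKB1, IRAK2, TRAF3, IKBKE and TNIP3 was not tested.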
